A study of Sus scrofa with 6 samples.

Results

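PLAU, F3 and F2R encode 3 proteins that act at the cell surface in proteolysis and blood clotting: the protease urokinase, tissue factor and the thrombin receptor. They were followed over 6 arrays of porcine cartilage and chondrocytes, 1 Affymetrix array for each of 6 conditions. The genes were chosen on their signals over these same arrays, so every difference of theirs is a description and none was tested. Each symbol was annotated to a single probe set, which gave 3 genes of the 6765 with an annotated symbol. All 3 lay above the signal floor of 36.1, the 40th percentile of all signals, on 6 of 6 arrays and so were among the 5601 genes kept for comparison. The arrays held native growth plate cartilage, the zone that lengthens a growing bone, and cultures of growth plate chondrocytes at day 10 and day 20. The others held native articular cartilage, which lines the joint, and articular chondrocyte cultures at the same 2 days. The labels call these days day 10 and day 20 of differentiation. Per the labels, cells were freed with collagenase and cultured in serum-supplemented DMEM/Ham's F12 at 37 °C with 5% oxygen and 5% carbon dioxide, with nothing further added. The labels used here give neither the number of animals nor their age, nor whether the native and cultured material of each tissue shared animals. No condition had a second array, so ratios between arrays carry no replicate error.

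Urokinase is a secreted serine protease that cuts plasminogen to plasmin, mostly while held at the cell surface by its receptor PLAUR, and plasmin in turn cleaves matrix and activates other proteases. Tissue factor is a membrane protein that binds factor VIIa and starts the clotting cascade, which ends in thrombin. F2R, also called PAR-1, is a G protein-coupled receptor that thrombin switches on by cutting off part of its extracellular end. Healthy cartilage has no blood vessels, and chondrocytes are known to make urokinase and its inhibitors.

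The deposited values are linear signals, and the table holds no detection calls. Between 58.6% and 61.0% of probe sets lay above the floor on an array. The native articular array stood apart, with a mean correlation of 0.889 to the others across genes, against 0.930 to 0.939 for the other 5. All 6 measured chondrocyte markers lay above the floor on every array. ACAN, the core protein of aggrecan, had signals of 14874, 12466 and 6596 in growth plate samples, and 15883, 10781 and 10267 in articular ones (native, day 10, day 20). SOX9, the transcription factor that defines chondrocytes, had signals of 175, 125 and 118 in growth plate samples, and 982, 81.0 and 76.8 in articular ones, where the culture signals were close to the array medians of 68.7 and 69.4. The T and B cell markers lay under the floor on all arrays (0 of 5), and so did CD163, TYROBP and MRC1 of macrophages and CDH5, TEK, TIE1 and VWF of endothelium. ENG, PECAM1 and ESAM of endothelium lay above the floor on every array by the probe sets used, and PECAM1 was highest, at 277, in native articular cartilage. At most 2 of 8 macrophage and 4 of 9 endothelial markers exceeded the floor on any array. Of 4 platelet markers 2 or 3 did, with summed signals of 177 to 225 and PPBP under the floor throughout, and of 3 red cell markers only HBB did. In such bulk samples, fewer cells of a type and less RNA per cell cannot be told apart.

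The 3 genes had 3 different patterns. PLAU separated the tissues, being lower in growth plate at every stage. F3 separated culture from native cartilage, being higher in culture in both tissues. F2R did neither, because it was lower in culture in growth plate and higher in culture in articular samples. Over the 6 arrays the Pearson correlation of log2 signal was -0.65 between PLAU and F3, 0.09 between PLAU and F2R and 0.06 between F3 and F2R, given as a description of 6 arrays that share 2 tissues of origin.

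**Figure D1:**
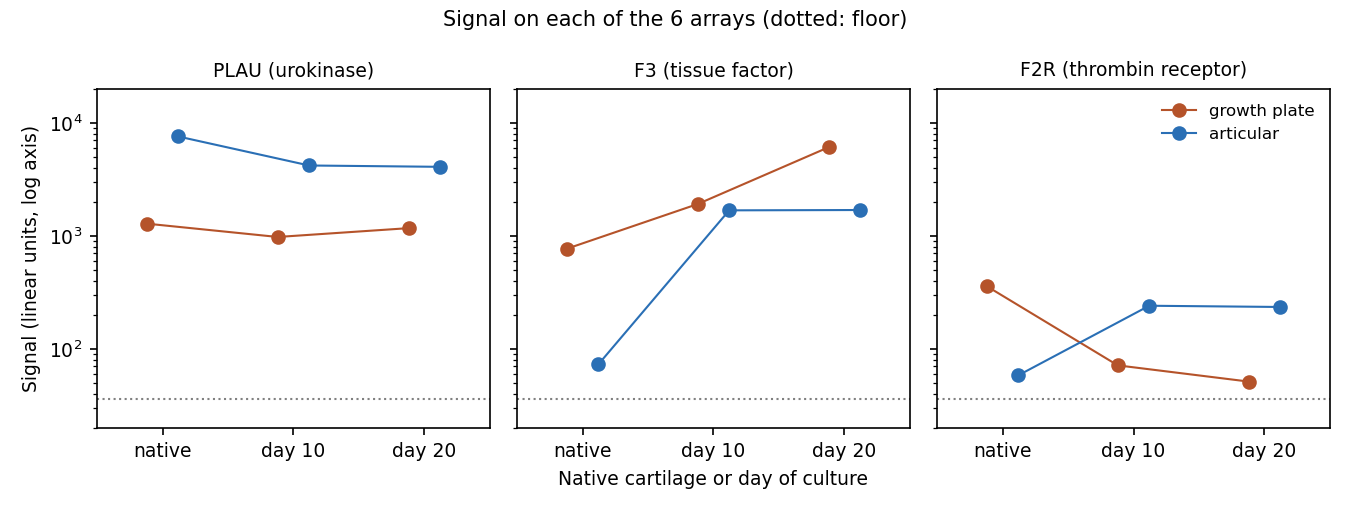
Signal (linear units on a log axis) of PLAU, F3 and F2R on each of the 6 arrays, by stage, with growth plate in brown and articular in blue; each point is 1 array and the dotted line is the floor of 36.1. PLAU is lower in growth plate at all 3 stages, F3 is higher in culture than in native cartilage, and the 2 lines of F2R cross.

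PLAU had signals of 1284, 979 and 1172 in growth plate at native, day 10 and day 20. In articular samples it had 7595, 4205 and 4093 at the same stages. The tissues did not overlap: the lowest articular signal was 3.19-fold above the highest growth plate signal. PLAU was therefore 5.91-fold lower in growth plate in native tissue, 4.29-fold lower at day 10 and 3.49-fold lower at day 20. The mean log2 difference was -2.16 ± 0.38 (SD over 3 pairs of arrays), the 13th lowest of 5601 genes. It was 1 of 18 genes (0.321%) at least 2-fold lower in growth plate in every pair, while 31 genes (0.553%) were at least 2-fold higher.

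The stages moved PLAU less than the tissues did. In growth plate the culture signals were 1.31-fold and 1.10-fold below native at day 10 and day 20,, while those of articular cells were 1.81-fold and 1.86-fold below it. The mean log2 difference of culture and native was -0.57 ± 0.37 (SD, 4 pairs, which share the 2 native arrays), and it was -0.26 without the native articular array and -0.87 without the native growth plate array. Within culture, day 20 differed from day 10 by 1.20-fold in growth plate and by 1.03-fold in articular cells. Its departure from additive effects of tissue and stage, a residual SD of 0.27 on the log2 scale, was near the median of all genes, 0.28. In order of level the native articular array came first, then articular day 10 and day 20, which lay within 1.03-fold of each other. The 3 growth plate arrays followed, with neighbours within 1.20-fold.

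The other measured genes of plasminogen activation did not differ between the tissues to that extent. Of 19 genes on that list 12 were annotated, and 5 besides PLAU passed the filter on low signals. With limma 0 of the 5 were called in any of the 3 comparisons, and 0 had an unadjusted p under 0.05. Over all genes limma called 3 (0.0536%) between the tissues, none of which is on a list used here, 0 (0%) between culture and native and 0 (0%) between day 20 and day 10. Unadjusted p-values under 0.05 numbered 597, 1089 and 820 in those comparisons. The median log2 difference of the 5 was -0.13 between tissues, -0.14 between culture and native and -0.19 between the days, against -0.04, 0.06 and -0.02 for all genes.

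Of the osteoblast and osteocyte markers, IBSP differed with tissue in the direction opposite to PLAU. Of the 3 markers that passed the filter, 1 had a positive and 2 a negative mean log2 difference between tissues, with a median of -0.13. The summed signal of the 5 annotated was 10740, 14131 and 15732 in growth plate, against 177, 432 and 6072 for articular samples (native, day 10, day 20). IBSP made up nearly all of it in growth plate and had a signal of 53.2 in native articular cartilage. BGLAP, DMP1 and SP7 were each under the floor on some arrays and PHEX on all. Articular day 20 had a far higher sum than articular day 10, while PLAU differed by 1.03-fold between them. The part of these markers in the PLAU values was not tested.

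SERPINE2, or protease nexin-1, an inhibitor of urokinase and thrombin, had signals of 6850, 5264 and 5988 in growth plate samples, and 6292, 5730 and 4928 in articular ones (native, day 10, day 20). No stage put its tissues more than 1.22-fold apart. ANXA2 and S100A10, which together form a surface docking site for plasminogen, were within 1.49-fold and 1.31-fold between tissues at every stage. VTN, or vitronectin, a matrix protein that binds PLAUR, had signals of 186, 119 and 61.9 in growth plate samples, against 140.0, 153 and 167 in articular ones. It was 2.69-fold lower in growth plate at day 20 and within 1.33-fold at the other stages. PLAT, the other plasminogen activator, was above the floor on only 1 array, at 37.6, and PLG, the zymogen itself, on none. PLAUR was not analysed here.

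F3 had signals of 771, 1917 and 6099 in growth plate at native, day 10 and day 20. In articular samples it had 72.9, 1685 and 1697. Every culture was above native cartilage of either tissue, and the native articular signal was only 2.02 times the floor. Growth plate cultures were 2.49-fold above native growth plate at day 10 and 7.91-fold above it at day 20. Articular cultures were 23.1-fold and 23.3-fold above native articular cartilage. The mean log2 difference of culture and native was 3.34 ± 1.54 (SD, 4 pairs that share 2 native arrays), the 7th highest of 5601 genes. F3 was 1 of 39 genes (0.696%) at least 2-fold higher in culture in all 4 pairs, and another 39 (0.696%) were at least 2-fold lower. Without the native articular array the mean log2 difference was 2.15.

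The size of the articular ratios depends on the low native value. With the floor raised to the 60th percentile of signals, the articular log2 differences from native were 3.63 at day 10 and 3.64 at day 20, where they were 4.53 and 4.54 with the floor used here. Native growth plate and articular cartilage were 10.6-fold apart, higher in growth plate. With the raised floor they were 5.67-fold apart. Raising a floor can shrink a difference but cannot reverse it, so the kept direction is no check.

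In culture the 2 tissues took different courses. At day 10 F3 was 1.14-fold higher in growth plate, and at day 20 it was 3.60-fold higher. Growth plate cells at day 20 were 3.18-fold above those at day 10, whereas articular cells at day 20 and day 10 differed by 1.01-fold. That difference in course was not tested, because each array stands alone. In order of level, growth plate day 20 stood first, 3.18-fold above the next. Growth plate day 10, articular day 20 and articular day 10 followed, with neighbours among these 3 within 1.13-fold. Native growth plate and then native articular cartilage came last. The mean log2 difference of the tissues was 1.81 ± 1.61 (SD, 3 pairs), so the SD was nearly as large as the mean, and it was 1.02 without either native array and 2.62 without either day 10 array. The residual SD around tissue and stage was 1.14, at percentile 97.8 of all genes.

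The summed signal of contractile cell markers, and in articular samples that of fibroblastic cell markers, was higher in culture as F3 was. Of those that passed the filter, 3 of 4 contractile and 6 of 7 fibroblast markers had a positive mean log2 difference of culture and native. PDGFRB had a negative one, at -0.29, and so had PDPN of the fibroblast markers. PDPN had a signal of 757 at growth plate day 20, where F3 was highest, and 4509 in native growth plate. The summed signal of 5 pericyte and smooth muscle markers was 12556, 15089 and 19539 in growth plate samples, and 3777, 16662 and 23407 in articular ones (native, day 10, day 20), most of it ACTA2. That of 7 fibroblast and synovial lining markers was 31231, 26867 and 41161 in growth plate samples, and 21947, 31265 and 37424 in articular ones. FN1 was the largest part of it on every array. Of the 5′ to 3′ signal ratios of the control probe sets, that of GAPDH was 1.005 on the growth plate day 20 array, where F3 was highest, and lay between 0.659 and 0.868 on the other 5. That of actin was 0.180 on that array and lay between 0.114 and 0.306 on the others, so the 2 ratios did not go the same way there. The part of these markers and ratios in the F3 values was not tested.

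Among the other genes of coagulation and its inhibitors, 1 of 11 measured, TFPI2, was 2-fold or more apart in every tissue pair. Over all genes 0.553% were so and higher in growth plate, and 0.321% were so and lower. Of 36 listed genes, 23 were annotated and 11 besides F3 passed the filter. With limma 0 of the 11 were called in any comparison. Of the 11, 3, 1 and 2 had an unadjusted p under 0.05 between tissues, between culture and native, and between the days. Over all 5601 genes 597, 1089 and 820 did. The median log2 difference was -0.18 between tissues, -0.02 between culture and native and 0.04 between day 20 and day 10.

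TFPI2, an inhibitor of plasmin and of the complex of tissue factor with factor VIIa, had signals of 523, 356 and 1196 in growth plate. Articular samples had 1511, 1274 and 2666. It was lower in growth plate at every stage, by 2.89-fold, 3.58-fold and 2.23-fold. TFPI2 was also the only one of the 11 at least 2-fold higher at day 20 than at day 10 in both tissues, which 138 genes (2.46%) were, while 161 (2.87%) were at least 2-fold lower.

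PROCR is the receptor of protein C, an anticoagulant that can also cut F2R once activated. It had signals of 229, 124 and 185 in growth plate samples, and 1042, 232 and 230.0 in articular ones. Its tissue difference of 4.55-fold in native cartilage was 1.25-fold at day 20. PROS1, the cofactor of activated protein C, had 1463, 506 and 1826 in growth plate samples, and 356, 1006 and 1765 in articular ones. It was 4.11-fold higher in growth plate in native tissue, 1.99-fold lower at day 10 and 1.03-fold apart at day 20. GAS6, a vitamin K-dependent ligand of receptor tyrosine kinases, had 361, 406 and 397 in growth plate samples, and 735, 715 and 1252 in articular ones. TFPI, the main inhibitor of tissue factor, lay under the floor on all 6 arrays.

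**Figure D2:**
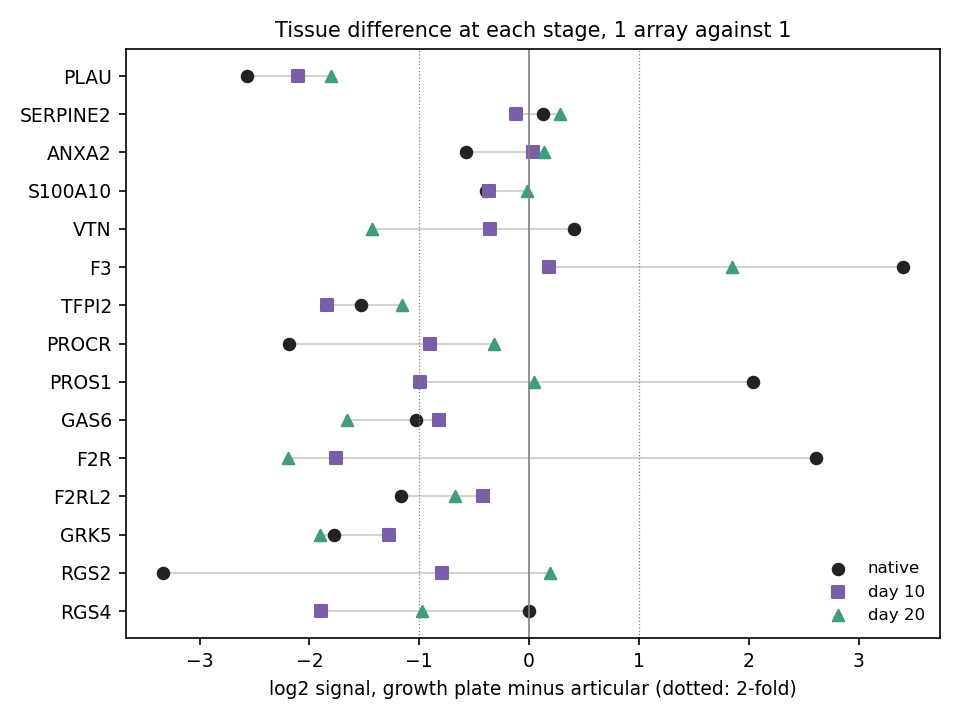
Difference in log2 signal between growth plate and articular samples at native (circle), day 10 (square) and day 20 (triangle) for PLAU, F3 and F2R, each above the 4 genes of its list named by rule; each symbol is 1 array minus 1 array, signals under the floor were raised to it, and dotted lines mark 2-fold. PLAU, TFPI2 and GRK5 lie left of -1 at all 3 stages, F3 lies right of 0 at all 3, and F2R is at 2.62 in native tissue and at -1.75 and -2.19 in culture.

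F2R had signals of 358, 71.5 and 51.4 in growth plate at native, day 10 and day 20. In articular samples it had 58.4, 241 and 235. Native growth plate was the highest array and both growth plate cultures were among the lowest 3, next to native articular cartilage. Native growth plate was 6.13-fold above native articular cartilage. In culture the order was turned round, with growth plate 3.37-fold lower at day 10 and 4.58-fold lower at day 20. The mean log2 difference over the 3 pairs was -0.44 ± 2.66 (SD), so the mean describes none of the pairs.

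Set against native tissue of the same kind, growth plate cultures were 5.01-fold lower at day 10 and 6.97-fold lower at day 20. Articular cultures were 4.13-fold and 4.03-fold higher than native articular cartilage. The mean log2 change was -2.56 in growth plate and 2.03 in articular samples, and -0.27 ± 2.66 (SD) over the 4 pairs. Of 5601 genes, 9 (0.161%) had changes of 2-fold or more at both days that were negative in growth plate and positive in articular cells, and 0 did the reverse. Day 20 and day 10 differed by 1.39-fold in growth plate and 1.03-fold in articular samples. The residual SD around tissue and stage was 1.88, at percentile 99.8 of all genes.

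On its 3 lowest arrays F2R was close to the floor, at 1.42 to 1.98 times it. With the floor at the 60th percentile, all 3 of those arrays lie at the floor, and the differences are bounds. The 4 changes shrank to -1.40 and -1.40 in growth plate samples, and to 0.83 and 0.79 in articular ones. The articular change thus no longer reached 2-fold. A raised floor cannot reverse a difference, so the kept direction is no check. The F2R probe set is annotated through an expressed sequence tag, where those of PLAU and F3 are annotated through RefSeq transcripts.

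**Figure D3:**
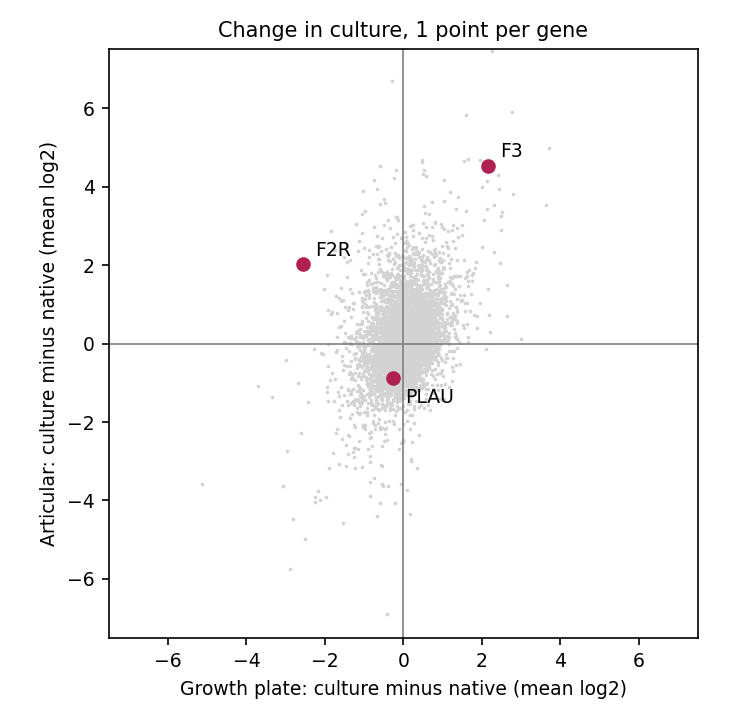
Mean log2 change of both culture days against native tissue in growth plate (horizontal) and articular samples (vertical), 1 grey point for each of 5601 genes, with PLAU, F3 and F2R in red. F3 lies at 2.15 and 4.54, PLAU at -0.26 and -0.87, and F2R in the quadrant of opposite change at -2.56 and 2.03.

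Of the other thrombin receptor genes only F2RL2 was measured. F2RL2, or PAR-3, had signals of 193, 421 and 277 in growth plate samples, and 433, 563 and 442 in articular ones. It was lower in growth plate at every stage, by 2.24-fold in native tissue, 1.34-fold at day 10 and 1.60-fold at day 20, and it did not change sides as F2R did. F2RL1 and F2RL3 were not analysed here.

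Of 26 listed genes of protease-activated receptors and their coupling, 12 were annotated and 9 besides F2R passed the filter. With limma 0 of the 9 were called in any comparison, and 3, 4 and 1 had an unadjusted p under 0.05. Over all 5601 genes 597, 1089 and 820 did. The median log2 difference was -0.18 between tissues, -0.13 between culture and native and 0.13 between the days. GRK5, a kinase that shuts off activated G protein-coupled receptors, had signals of 98.8, 65.0 and 57.3 in growth plate samples, and 338, 158 and 214 in articular ones. It was at least 2-fold lower in growth plate in all 3 pairs, as PLAU and TFPI2 were, but by a mean log2 difference of -0.73 with the floor at the 60th percentile. RGS2, which speeds the switching-off of Gq proteins, had 399, 234 and 316 in growth plate samples, and 4016, 403 and 277 in articular ones. Its 10.1-fold native difference rests on the native articular array and on 1 of its 3 probe sets, the others being at or near the floor. RGS4, a regulator of the same kind, was above the floor on 3 arrays, at 126 in growth plate day 20 and at 134 and 247 in articular day 10 and day 20.

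Between single arrays, the share of all genes at least 4-fold apart differed widely. In native tissue all 3 genes were, as were 261 of all genes (4.66%). At day 10 of culture only PLAU was (1.12% of all genes), and at day 20 only F2R (1.14%). Against native growth plate, F2R was at day 10 (1.41%), and F3 and F2R were at day 20 (1.62%). Against native articular cartilage, F3 and F2R were at day 10 (6.21%) and again at day 20 (6.16%). Between the culture days none of the 3 was, in growth plate (2.34%) or in articular samples (1.48%). The pairs with the largest shares are those that hold the native articular array.

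Genes related to the same pathways were read from 5 other lists. These held genes induced by thrombin or factor VIIa, growth factors that plasmin acts on, and factors acting on the PLAU or F3 promoter. They also held partner receptors and other pericellular proteases with their inhibitors. The lists were drawn from general knowledge, but with earlier results of these data known, so their shares are a description. Over all 8 lists 86 genes besides PLAU, F3 and F2R were measured, and with limma 0 of them were called in any comparison. Unadjusted p-values under 0.05 numbered 23 between tissues, 28 between culture and native and 20 between the days, against 597, 1089 and 820 of all 5601 genes. By the rule of 2-fold in every pair, 2 of the 86 were higher and 2 lower for growth plate (2.33% each), 0 higher and 4 lower for culture (4.65%), and 9 higher and 0 lower for day 20 against day 10 (10.5%). Over all genes the shares higher and lower were 0.553% and 0.321% between tissues, 0.696% each between culture and native, and 2.46% and 2.87% between the days.

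Genes known to be induced by thrombin or factor VIIa signalling in other cells were mostly lower in culture, where F3 was higher. Of 16 measured, 14 had a negative log2 difference of culture and native, with a median of -0.91 against 0.06 for all genes. Between tissues their median was -0.66, and 5, 11 and 2 of them had an unadjusted p under 0.05 in the 3 comparisons, against 597, 1089 and 820 of all 5601 genes. The native articular array, which stands apart, moved with these values: FOS had signals of 1643, 1490 and 1190 in growth plate samples, and 6567, 2113 and 2490 in articular ones, and LIF was above the floor there, at 739, and otherwise only at growth plate day 20, at 46.0. The part of that array was not tested. CXCL8, a neutrophil chemokine, and CCL2, a monocyte chemokine, were at least 2-fold lower in all 4 pairs. CCL2 had signals of 1750, 78.8 and 375 in growth plate samples, and 2855, 876 and 1419 in articular ones. From day 10 to day 20 the median was 0.52, and VEGFA, EGR1, CXCL8 and VCAM1 were at least 2-fold higher at day 20 in both tissues. VEGFA had 1715 and 5792 in growth plate at day 10 and day 20 and 1282 and 5440 in articular samples, and 1 of its 3 probe sets above the floor changed by less than 2-fold. With the floor at the 60th percentile CXCL8 lay at it on all culture arrays.

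The list of transcription factors known to act on the PLAU or F3 promoter in other cells had 10 measured genes. NFKBIA was counted among them, although it is an inhibitor and not such a factor. The list had a median of -1.21 between culture and native, -0.56 between tissues and 0.53 between the days. Here too the native articular array was high. ATF3, a stress-induced factor, had a signal of 5789 there and 358 to 571 on the other 5, and its log2 change in culture was 0.08 in growth plate and -3.73 in articular samples. JUN, the main AP-1 partner of FOS, had 2955 there and 221 to 518 on the others. FOSL1, an AP-1 subunit, had signals of 1475, 420 and 537 in growth plate samples, and 3776, 632 and 316 in articular ones. NFKBIA, an inhibitor of NF-kappa B, with 10273 in native articular cartilage and 383 to 1849 elsewhere, was the other gene at least 2-fold lower in all 4 pairs. EGR1, an inducible zinc finger factor, had 204, 152 and 339 in growth plate samples, and 290.5, 431 and 1018 in articular ones. EGR1 and FOSL2, another AP-1 subunit, were at least 2-fold higher at day 20 than at day 10 in both tissues, although a second EGR1 probe set, with 355 at day 20 and 212 at day 10 in growth plate, was less than 2-fold apart there.

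Integrins and partner receptors of the urokinase receptor and tissue factor had medians of -0.16 between tissues, -0.30 between culture and native and 0.36 between the days, over 10 measured genes. ITGB3, the beta subunit of the vitronectin receptor, had signals of 287, 253 and 177 in growth plate samples, and 92.1, 70.8 and 94.2 in articular ones. Its tissue differences of 3.12-fold, 3.58-fold and 1.88-fold ran opposite to those of PLAU. PDGFRB, a growth factor receptor, was at least 2-fold higher at day 20 than at day 10 in both tissues by the probe set used, but the other had 59.7 at day 20 and 95.2 at day 10 in growth plate.

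Of 8 measured growth factors that plasmin is known to activate or release, all had a positive log2 difference of day 20 and day 10, with a median of 1.23. TGFB2 differed by 2-fold or more in all 3 tissue pairs, higher in growth plate, and VEGFA, FGF2 and BDNF were at least 2-fold higher at day 20 in both tissues. The median of 1.23 rests on FGF2 and BDNF, which were near the floor and under it at day 10 in both tissues. IGF1 was likewise under it at day 10 in both tissues, so the size of these differences depends on the floor. A second FGF2 probe set was above the floor only in articular cells at day 10, at 46.0. The medians of this list were -0.07 between tissues and -0.02 between culture and native. Of 21 measured pericellular proteases and inhibitors outside the plasminogen system, MMP13, a collagenase, likewise differed by 2-fold or more in all 3 tissue pairs, higher in growth plate. Its articular signals were near or under the floor, at 39.8, 27.0 and 30.5 (native, day 10, day 20). With the floor at the 60th percentile its mean log2 difference was 1.02 in place of 2.69, and both native signals lay under that floor. Its other probe set was under the floor used here on every array. The medians of that list were 0.04, -0.41 and 0.38 in the 3 comparisons.

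The genes with the most similar profiles were taken from 3073 genes that lay above the floor on at least 4 arrays and varied at least 2-fold. Pearson correlations of log2 signal over the 6 arrays were used, as a description. Those most like PLAU were MED30 (0.990), SH3BGRL3 (0.979), ABTB2 (0.975), WASHC1 (0.971) and ZNF219 (0.969). Of these only ABTB2 varied as widely, with a log2 range of 3.08. SH3BGRL3 had signals of 465, 342 and 471 in growth plate samples, and 1227, 977 and 1096 in articular ones.

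Those most like F3 were DENND6A (0.994), CNPY2 (0.989), GALNT10 (0.986), SPAG1 (0.985) and TFB1M (0.979). Each had its lowest signal in native articular cartilage and its highest in growth plate day 20, as F3 did. That likeness follows from how these genes were chosen and is no check on F3. Their log2 ranges were only 1.57 to 2.42. F3 itself varied 83.7-fold. Those most like F2R were RNASE1 (0.981), NANP (0.953), FST (0.952), JAK2 (0.937) and PSRC1 (0.933). FST, which encodes the activin inhibitor follistatin, had signals of 252, 81.6 and 47.8 in growth plate samples, and 49.7, 116 and 148 in articular ones. JAK2, a cytokine receptor kinase, had 1201, 404 and 246 in growth plate samples, and 347, 713 and 549.7 in articular ones. JAK2 was picked for its likeness to F2R, so its crossing pattern follows from that choice and is no check on F2R. Its signals were far above the floor, while RNASE1 and NANP were under the floor in native articular cartilage.

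**Figure D4:**
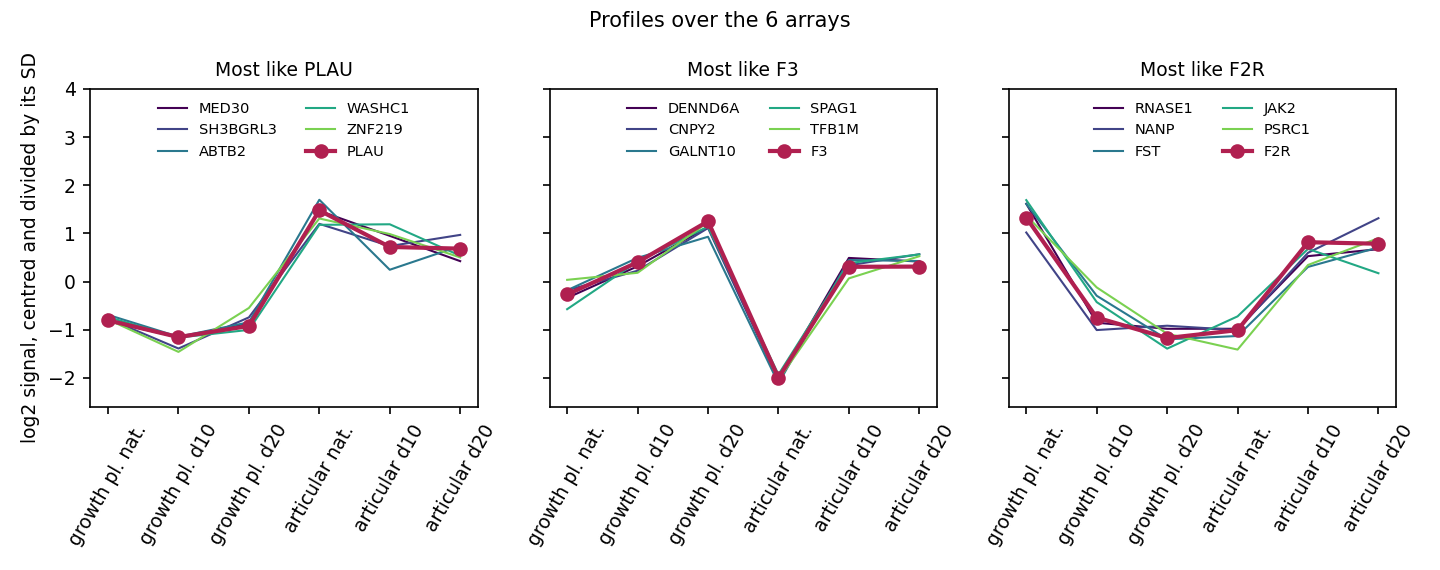
Log2 signal over the 6 arrays, centred and divided by its SD for each gene, of PLAU, F3 and F2R (red, with points) and of the 5 genes whose profiles correlate best with each; arrays are growth plate and articular, each at native, day 10 (d10) and day 20 (d20). Profiles like PLAU step up in articular samples, those like F3 dip in native articular cartilage, and those like F2R are high in native growth plate and in articular cultures.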

How the data were processed

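The deposited table holds linear signal intensity values per probe set, made by the authors with GCOS 1.4, according to the submitters' processing notes; its scaling target and settings are not given in the sources used here. Trimmed mean signals of the 6 arrays agreed within a factor of 1.000053, so the values were not normalized again. From 24123 probe sets, 124 controls were dropped. Signals under their 40th percentile (36.1) were set to that floor before taking log2. Of the rest, 10069 probe sets had 1 gene symbol, 198 several and 13732 none. Of the 10069, 9961 had a current ID in the RefSeq table of Sscrofa11.1, used only for names. Each gene was read from its probe set of highest mean, and a gene had to exceed the floor on 2 or more arrays, which left 5601. With 1 array per condition, limma 3.58.1 in R 4.3.3 was fitted across all genes to tissue plus stage with an intensity trend, on 2 residual degrees of freedom and a prior of 3.74. The p-values set a difference only against the departure from that sum. Calls needed 2-fold or more and a Benjamini-Hochberg adjusted p under 0.05. The tissue contrast of the fit was run on simulated data with additive tissue and stage effects and equal noise for all genes. That run therefore does not bear on departures from the sum.

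PLAU, F3 and F2R and the lists were chosen with earlier results of these data known. Named list genes were those at least 2-fold apart in every pair of arrays and those of largest mean difference, up to 4 per list and comparison; some were singled out from these after their values were seen, as was the JAK2, FST and SH3BGRL3 detail. Alternatives were quantile normalization, median centring, other floors, a pseudocount, other filters, the mean of probe sets, no intensity trend, a 4-fold rule and leaving out each array. No coordinates or sequences are given, since no genome or sequence table of the array's build was used here. The number of arrays limits the precision.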

Additional observations from a re-analysis of the deposited data

Results flagged for a closer look

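F2R had opposite changes in culture in the 2 tissues. Its mean log2 change against native tissue was -2.56 in growth plate and 2.03 in articular samples, and both culture days of each tissue moved the same way. The difference between the tissues was not tested, because each condition has 1 array and the interaction of tissue and stage is the only residual. The native articular array, which stands apart, is the baseline of both articular changes, and its F2R signal was 58.4. The 2 culture pairs that do not use it had F2R lower in growth plate, at 71.5 against 241 at day 10 and at 51.4 against 235 at day 20. Those pairs compare the tissues within culture and do not bear on the articular change against native.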

How the results depend on the processing

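Across 6 processing alternatives the mean log2 differences of PLAU, F3 and F2R moved by less than their SD over pairs in all 3 comparisons. The floor at the 25th percentile and the mean of probe sets could not move them. Each gene has a single probe set and lay above the main floor on every array. For F2R the SD was 2.66 around a mean of -0.44 between tissues, so a move smaller than the SD says little. Between tissues the means ranged from -2.25 to -2.12 for PLAU, 1.51 to 1.81 for F3 and -0.53 to -0.07 for F2R. Leaving out each array in turn gave -2.33 to -1.95, 1.02 to 2.62 and -1.97 to 0.43. Between culture and native it gave -0.87 to -0.26, 2.15 to 4.54 and -2.56 to 2.03, so the sign of the F2R mean depends on which native array is left out. Between day 20 and day 10 it gave -0.04 to 0.26, 0.01 to 1.67 and -0.48 to -0.04. Genes called between tissues numbered 3, and 6 with quantile normalization, 8 with median centring, 5 and 6 with floors at the 25th and 60th percentiles, 6 with a pseudocount, 1 with the mean of probe sets, 1 without the trend, and 0 with no filter or with all arrays above the floor. Between culture and native the limma count of 0 became 9 with median centring, 5 with the 60th percentile floor, 4 with a pseudocount and 3 with all arrays above the floor. With the 60th percentile floor, genes at least 2-fold apart in every pair numbered 31 against 49 between tissues, 48 against 78 in culture and 199 against 299 between the days. At 4-fold they numbered 8, 11 and 35. Leaving out 1 array gave 0 to 13, 0 to 886 and 0 to 223 genes called, and 118 to 137, 93 to 840 and 299 to 766 genes apart in every remaining pair, which has fewer pairs by construction. Leaving out native growth plate or native articular cartilage gave 12 and 13 genes called between tissues and 223 and 204 between the days. The 886 and the 840 were without native growth plate, which leaves native articular cartilage as the only baseline. No paired analysis was possible because no condition has a second array and replicate numbers pair nothing; tissue and stage are already terms of the fit. The values closest to the floor, F2R on 3 arrays and F3 in native articular cartilage, are the least precise.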

Other observations

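Of the pericellular proteases and inhibitors, 3 were picked after their values were seen because they were highest in native articular cartilage. MMP13 of the same list was instead higher in growth plate at every stage. ADAMTS1 had the largest mean log2 difference of that list between tissues, 2.72. It had 1018, 944 and 315 in growth plate samples (native, day 10, day 20), and 54.9, 52.3 and 371 in articular ones, so day 20 went the other way. MMP3, or stromelysin-1, had 48.3, 1.95 and 17.7 in growth plate samples at native, day 10 and day 20, and 4319, 14.2 and 0.593 in articular ones. Native growth plate was 89.4-fold lower than native articular cartilage, and a second probe set read 27.9 in native growth plate and 1552 in native articular cartilage. MMP1, an interstitial collagenase, had 161, 29.9 and 124 in growth plate samples, and 807, 149 and 80.1 in articular ones. TIMP3, a matrix-bound inhibitor of such proteases, had 461, 754 and 449 in growth plate samples, and 1681, 180 and 193 in articular ones. These are values of single arrays, and PLAU was likewise highest in native articular cartilage.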
